A study of Mus musculus with 8 samples.

Results

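The 10 genes described here are immediate early genes of the AP-1 and Egr families and a companion, namely the Jun family (*Jun*, *Junb*, *Jund*), the Fos family (*Fos*, *Fosb*, *Fosl1*, *Fosl2*), *Egr1*, *Egr2* and *Ier2*. They were picked by exact gene symbol from a table of 23427 genes. That table holds the mRNA of wild-type C57BL/6J mouse primary OPCs, the precursors of myelin-forming OLs, isolated by panning on an anti-PDGFRα antibody from cortices of pups (3 per isolation, at postnatal day 7) without any genetic change. Day 0 was the proliferating state with PDGF-AA (10 ng/mL) and CNTF (10 ng/mL). On Day 1, Day 2 and Day 3 the cells had been without PDGF-AA and with the thyroid hormone T3 (40 ng/mL). The methods name only PDGF-AA as removed, whereas a figure legend of the study speaks of growth factors, so whether CNTF stayed is not clear. Each day had 2 libraries, which the study calls independent replicates, so that 8 libraries were compared. The methods give a serum-free medium, whereas the sample labels name DMEM with 10% FBS, and the hours between the last medium change and the harvest were not given in the sources used here. The question was which of the other genes share the course of *Jun*, which was low on Day 1 and came back by Day 3.

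Jun proteins pair with each other or with Fos proteins through a leucine zipper, and the resulting dimer, AP-1, binds DNA at short palindromes. Egr proteins are zinc finger factors that bind GC-rich sites. Growth factors acting through the MAP kinase pathway switch on most of these genes within minutes and without new protein synthesis, by way of SRF and its ternary complex factors, and the transcripts are short-lived. *Jund* is the least inducible of the Jun genes. In the oligodendrocyte lineage PDGF-AA is the best known mitogen of OPCs, and *Egr2* is better known for its role in the myelinating Schwann cell of the peripheral nerve.

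Values are FPKM, the fragments of a gene divided by its transcript length and by the mapped fragments of the library. The depth read from the steps between low values was about 950000 to 1520000 fragments per library, so *Jun* rested on about 30 to 161 fragments in each library, *Egr1* on about 4 to 28 and *Egr2* on at most 11. The identity of the cells was checked with marker genes. The summed FPKM of 6 oligodendrocyte markers rose from 787 and 1070 (Day 0) to 19000 and 26800 (Day 3), and that of 4 OPC markers fell from 1000 and 1030 to 261 and 162. Microglia markers summed to at most 2.51 FPKM, endothelial markers to at most 0.428 and mural or fibroblast markers to at most 2.2, with 5 or 6 of the 6 microglia markers at 0 in every library. The summed FPKM of 7 astrocyte markers was higher in replicate 2 on each day (304, 498, 610 and 900 on Day 0 to Day 3) than in replicate 1 (88.7, 161, 122 and 133). The part of these cells in the values below was not tested.

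Among the 10 genes, *Jun* and *Jund* were low on Day 1 and high at both ends, and the means of *Junb* ran the opposite way. For *Egr1*, *Egr2* and *Ier2* both Day 0 libraries were above all others. *Junb*, *Fos* and *Fosl2* passed the test in none of the comparisons. *Fosb* and *Fosl1* were at or near 0. With limma on log2(FPKM + 1), 12208 genes that reached 1 FPKM in 2 or more libraries were tested, among them 8 of the 10. As the question came from the course of *Jun*, its values are given as a description without a test, and counts refer to the 7 other genes tested. A dip was put into a single contrast, Day 1 against the mean of Day 0 and Day 3. In that contrast 1 of the 7 genes, *Jund*, was lower at an adjusted p under 0.05, against 3.52% of all genes. None was higher (0 of 7, and 1, *Junb*, at an unadjusted p under 0.05), against 3.05% of all genes. *Jund* was also the sole one of the 7 with both Day 1 libraries below all 4 libraries of Day 0 and Day 3, as for 5.41% of all genes tested, and *Junb* was the sole one with both above them, as for 11.1%. The comparisons share libraries with each other, so their results are not independent.

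**Figure D1:**
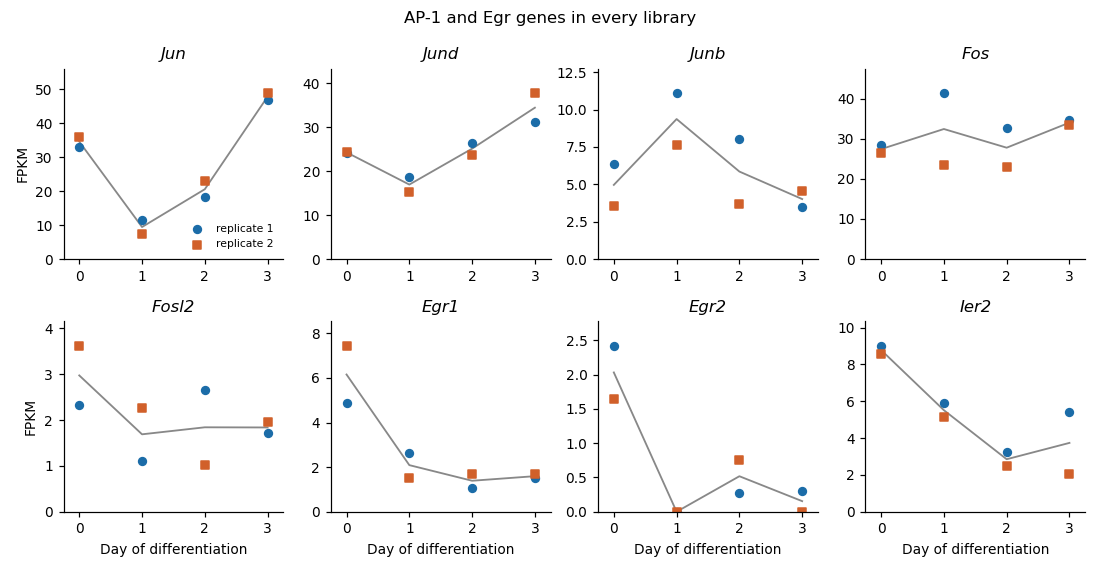
FPKM (vertical axis, from 0, with its own scale in each panel) against the day of differentiation for the 8 genes tested, with blue circles for replicate 1, orange squares for replicate 2 and a grey line through the mean of the 2 libraries of each day. The *Jun* line falls from 34.6 to 9.44 FPKM and climbs to 47.8, the *Jund* line has a shallower dip from 24.3 to 17.0 and 34.5, and *Junb* runs the other way from 4.96 to 9.36 and 4.01.

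*Jun* encodes c-Jun, the most strongly transactivating member of the Jun family. It is a gene of a single exon on chromosome 4 (GRCm38, chr4:95049034-95052222, minus strand). Its FPKM was 33.1 and 36.1 (Day 0), 11.5 and 7.36 (Day 1), 18.3 and 22.9 (Day 2), and 46.9 and 48.8 (Day 3). No library of a day overlapped with those of another, and the order of the days was Day 3, Day 0, Day 2 and Day 1. The mean on Day 1 was 27.3% of that on Day 0, and the mean on Day 3 was 5.07 times that on Day 1 and 1.38 times that on Day 0. On the log2(FPKM + 1) scale the change was −1.80 (SE 0.22) from Day 0 to Day 1, 1.07 from Day 1 to Day 2 and 1.19 from Day 2 to Day 3. Leaving out a Day 1 library set the fall at −2.09 (without replicate 1) or −1.51 (without replicate 2). Both replicates moved alike, by −1.45 in replicate 1 and −2.15 in replicate 2 from Day 0 to Day 1, and by 1.94 and 2.57 from Day 1 to Day 3. In bulk RNA, fewer cells with a transcript and less of it per cell cannot be told apart. An antisense gene, *Junos*, covers 689 bp of *Jun*. The libraries were stranded, but whether fragments were counted by strand was not given in the sources used here.

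The upstream sequence of *Jun* is shown because AP-1 is known to act on it. RefSeq windows of 250 bases before to 50 bases after a transcription start (GRCm38.p6) were at hand for 7 of the 10 genes and not for *Fosl1*, *Ier2* and *Egr1*. They were searched on both strands for the AP-1 site TGANTCA, the cAMP response element TGACGTCA, the related site TGACATCA known from the *Jun* promoter itself, the CArG box bound by SRF, and the Egr site GCGNGGGCG. No window of these genes held more than 1 match, so matches of different patterns did not overlap. Of the 32851 RefSeq windows of that length, 7.81% held the AP-1 site, 1.79% the cAMP response element, 3.62% TGACATCA, 1.63% the CArG box and 5.55% the Egr site. *Jun* held TGACATCA from 45 to 38 bases before its start. *Egr2* has several starts in RefSeq, and the CArG box of the one shown lies 72 to 63 bases before it, whereas another start has a CArG box of different letters and the one farthest upstream had none of the 5 patterns. *Fosl2* held the Egr site 79 to 71 bases and *Fosb* 50 to 42 bases before the start. The windows of *Jund*, *Junb* and *Fos* held none of the 5, which says only that these letters are not in them, and the *Jund* entry of RefSeq starts 1210 bases upstream of the GENCODE M21 gene. A match is a description and not evidence of binding. The 30 bases around each match follow, 5′ to 3′ on the strand of the gene, with the match in capitals, for *Jun* (chr4:95052249-95052278, minus strand), *Egr2* (chr10:67537787-67537816, plus strand), *Fosl2* (chr5:32136383-32136412, plus strand) and *Fosb* (chr7:19310076-19310105, minus strand).
Jun: aagcctcggggTGACATCAtgggctatttt
Egr2: gttcctcagtCCATATATGGgcagcgacgt
Fosl2: ccggctgcgcGCGGGGGCGgaagggcgcgc
Fosb: tgacgcaagcGCGGGGGCGggtcccggagg

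*Jund* encodes the Jun protein that is present in most resting cells. Its FPKM was 24.2 and 24.4 (Day 0), 18.7 and 15.2 (Day 1), 26.5 and 23.7 (Day 2), and 31.2 and 37.7 (Day 3). The Day 1 libraries were the lowest of the 8 and the Day 3 libraries the highest, while Day 0 and Day 2 overlapped. The mean on Day 1 was 69.8% of that on Day 0, compared with 27.3% for *Jun*, and the mean on Day 3 was 2.03 times that on Day 1. In the contrast of Day 1 with both ends the change was −0.74 (SE 0.15, adjusted p = 0.028 by limma). From Day 1 to Day 3 it came back by 0.98 (SE 0.17, adjusted p = 0.00758). *Jund* was thus the 1 gene of the 7 called higher on Day 3 than on Day 1, against 7.04% of all genes, and 1.74% of all genes passed both this test and that of the dip. None of the 7 was called lower in that comparison (0, and 1, *Junb*, at an unadjusted p under 0.05), against 12.2% of all genes.

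Each step of *Jund* taken alone was weaker. The fall from Day 0 to Day 1 was −0.50 (adjusted p = 0.105), the rise to Day 2 was 0.55 (adjusted p = 0.123) and that from Day 2 to Day 3 was 0.44 (adjusted p = 0.305), so that the fall itself did not pass the test. No other gene of the 7 passed from Day 1 to Day 2 (0 of 7, and *Jund* alone at an unadjusted p under 0.05, against 3.89% of all genes) or from Day 2 to Day 3 (0 of 7, and again *Jund* alone, against 0.295%). The dip of *Jund* was called in 12 of 18 settings of the analysis, the one used here included, and the call was lost without any 1 of both Day 0 libraries, both Day 1 libraries or Day 3 replicate 2 (adjusted p = 0.0564 to 0.207). The return was called in 16 of 18 settings, with an adjusted p of 0.0544 without Day 3 replicate 2. An antisense gene, *Gm11175*, covers 919 bp of *Jund* (chr8:70698949-70700616, plus strand, 1 exon), and the same limit of counting holds as for *Jun*.

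*Jund* stood at 1.42 times its Day 0 mean on Day 3, a change of 0.48 on the log2 scale (adjusted p = 0.0593). The median of all genes moved by −0.31 between these days, and with libraries scaled by median ratios the change of *Jund* was 0.79 (adjusted p = 0.00952). As deposited, none of the 7 genes was called higher on Day 3 than on Day 0 (0, and 1, *Jund*, at an unadjusted p under 0.05), against 12% of all genes. With median ratio scaling 17.5% of all genes were called higher and 16.8% lower, compared with 12% and 26.3% as deposited.

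*Junb* encodes a Jun protein with weaker transactivation than c-Jun, which lowers c-Jun activity in some dimers. Its FPKM was 6.38 and 3.54 (Day 0), 11.1 and 7.65 (Day 1), 8.03 and 3.67 (Day 2), and 3.49 and 4.54 (Day 3). Both Day 1 libraries were above the 4 libraries of Day 0 and Day 3, yet Day 2 overlapped with all other days. These levels rested on about 7 to 25 fragments. The change was 0.82 (SE 0.40, adjusted p = 0.232) from Day 0 to Day 1 and 0.93 (SE 0.34, adjusted p = 0.155) against both ends, so the peak did not pass the test. From Day 1 to Day 3 the change was −1.04 (adjusted p = 0.105). The gene lies at chr8:84974484-84978718 (minus strand), and its end overlaps 351 bp of *Prdx2*, at 302 to 510 FPKM on the other strand, though not the longest *Junb* transcript.

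FPKM is scaled by length, so the 3 Jun genes can be added within a library. Their sum was 63.7 and 64.0 FPKM (Day 0), 41.3 and 30.2 (Day 1), 52.9 and 50.3 (Day 2), and 81.6 and 91.1 (Day 3). *Jun* made up 52.0% and 56.4% of it on Day 0 but 27.9% and 24.4% on Day 1, when *Jund* was the most abundant of the 3 with 45.3% and 50.3%. *Junb* rose in share from 10.0% and 5.54% to 26.8% and 25.3% on Day 1, where its level was close to that of *Jun*, and had 4.27% and 4.98% on Day 3. The shares follow from the levels above and were not tested apart from them.

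**Figure D2:**
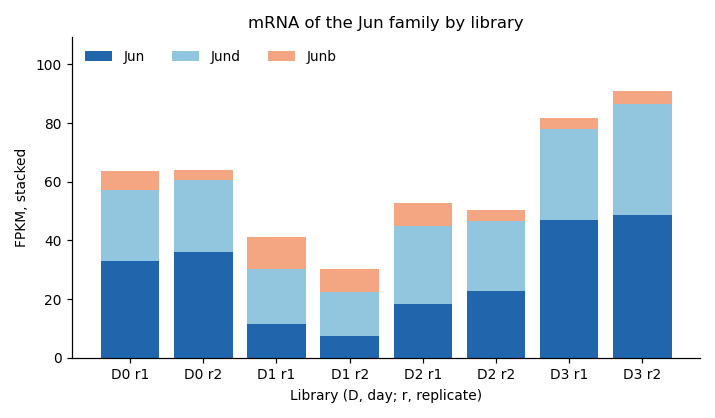
Stacked bars of FPKM (vertical axis, from 0) of *Jun* (dark blue), *Jund* (light blue) and *Junb* (orange) in each of the 8 libraries, named by day (D) and replicate (r). The Day 1 stacks are the shortest, at 41.3 and 30.2 FPKM, and have the smallest *Jun* segment, while the Day 3 stacks reach 81.6 and 91.1 FPKM.

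*Fos* encodes c-Fos, the classical growth factor induced partner of c-Jun, and lies at chr12:85473890-85477273 (plus strand). Its FPKM was 28.3 and 26.5 (Day 0), 41.3 and 23.5 (Day 1), 32.5 and 23.0 (Day 2), and 34.6 and 33.4 (Day 3). Replicate 1 was above replicate 2 on all 4 days, most on Day 1. Both Day 3 libraries were above those of Day 0 and Day 2, and Day 1 overlapped with every other day. The change was 0.18 (SE 0.27, adjusted p = 0.727) from Day 0 to Day 1 and 0.03 (adjusted p = 0.958) against both ends, and 0.30 (adjusted p = 0.397) from Day 0 to Day 3. Its direction on Day 1 rested on a single library, since the change from Day 0 was −0.21 without Day 1 replicate 1. A dip of the size seen for *Jun* was not present in either replicate, with changes from Day 0 to Day 1 of 0.53 in replicate 1 and −0.16 in replicate 2.

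The other Fos genes were low. *Fosl2*, which encodes Fra-2, had 2.33 and 3.61 FPKM (Day 0), 1.11 and 2.27 (Day 1), 2.66 and 1.02 (Day 2), and 1.72 and 1.96 (Day 3). Both Day 0 libraries were above those of Day 1 and Day 3, while Day 2 overlapped with every other day, and the change was −0.58 (SE 0.41, adjusted p = 0.418) from Day 0 to Day 1 and −0.47 (adjusted p = 0.391) from Day 0 to Day 3. *Fosb* did not exceed 0.345 FPKM, which is about 2 fragments, and *Fosl1*, which encodes Fra-1, was listed at 0 in all 8 libraries, so neither could be tested. *Fos* accounted for 88.0% to 96.9% of the summed FPKM of the Fos genes in each library.

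*Egr1* encodes a zinc finger factor that rises with growth factor signalling, and lies at chr18:34859823-34864984 (plus strand). Its FPKM was 4.88 and 7.43 (Day 0), 2.65 and 1.53 (Day 1), 1.07 and 1.71 (Day 2), and 1.49 and 1.70 (Day 3). Both Day 0 libraries were above the other 6, which overlapped among themselves, and unlike *Jun* the gene had not come back on Day 3, when its mean was 25.9% of that on Day 0. The change was −1.21 (SE 0.35, adjusted p = 0.0573) from Day 0 to Day 1, −0.23 (adjusted p = 0.69) from Day 1 to Day 3 and −1.44 (SE 0.35, adjusted p = 0.0126) from Day 0 to Day 3. The last was called in 15 of 17 settings and not without Day 0 replicate 2 (adjusted p = 0.0933). These levels come to about 23 and 28 fragments on Day 0 and 5 and 5 on Day 3.

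*Egr2*, also known as Krox20 (chr10:67535475-67542188, plus strand), had 2.42 and 1.65 FPKM (Day 0), was listed at 0 in both Day 1 libraries, had 0.277 and 0.760 (Day 2), and 0.309 and 0 (Day 3). Only the Day 0 libraries were above 1 FPKM, on about 11 and 6 fragments. It therefore entered the test through the day on which it was high. Its changes, and counts that rest on it, carry no weight of their own. From Day 0 to Day 1 it was the 1 gene of the 7 called lower (−1.59, SE 0.36, adjusted p = 0.0246), against 7.56% of all genes, with 3 at an unadjusted p under 0.05 (*Egr1*, *Egr2* and *Jund*). None was called higher (0 of 7, also at an unadjusted p under 0.05), against 5.04% of all genes. The fall of *Egr2* on Day 1 was not called without any 1 of the Day 0 and Day 1 libraries (adjusted p = 0.0727 to 0.131). From Day 0 to Day 3 its change was −1.40 (adjusted p = 0.0172), and not called without Day 0 replicate 1 (0.0861) or Day 3 replicate 2 (0.0808).

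*Ier2* encodes a small nuclear protein of the immediate early response with no known DNA-binding domain of the AP-1 or Egr type, from a single exon at chr8:84661331-84662852 (minus strand). Its FPKM was 8.99 and 8.57 (Day 0), 5.89 and 5.14 (Day 1), 3.24 and 2.47 (Day 2), and 5.42 and 2.06 (Day 3). The Day 0 libraries were the highest and the Day 3 libraries spanned those of Day 2. The mean on Day 3 was 42.6% of that on Day 0, a change of −1.14 (SE 0.37, adjusted p = 0.0399), with −0.59 (adjusted p = 0.36) at the first step. *Ier2*, *Egr1* and *Egr2* were the 3 of 7 genes called lower on Day 3 than on Day 0, against 26.3% of all genes. *Egr2* entered the test through Day 0, so it adds no weight to this count. None of the 3 (0 of 7) was called with quantile normalization. The call of *Ier2* was marginal, since it held in 4 of 17 settings and was lost when any 1 of 7 libraries was left out (adjusted p of up to 0.198, without Day 3 replicate 2). With the replicate number as a block, the adjusted p from Day 0 to Day 3 was 0.0118 for *Egr1*, 0.0177 for *Egr2* and 0.0211 for *Ier2*, and that of the dip of *Jund* was 0.0228.

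**Figure D3:**
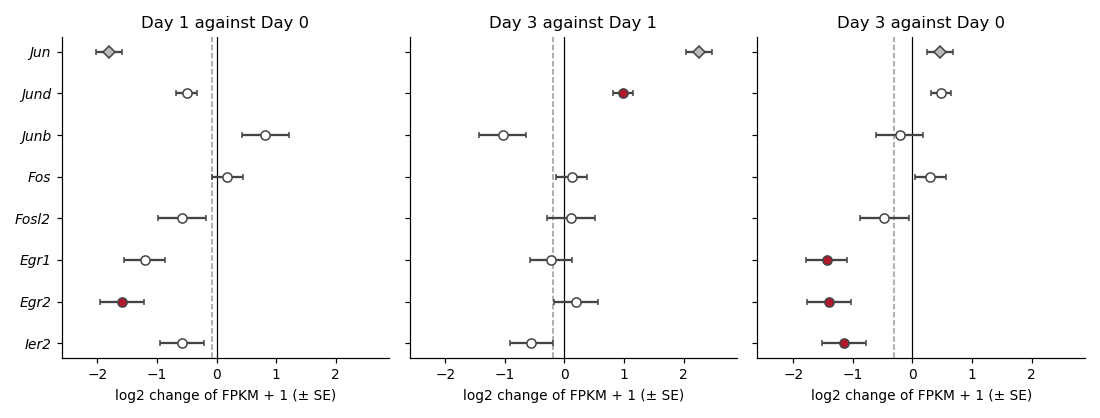
Change in log2(FPKM + 1) with its SE (horizontal axis) of the 8 genes tested in 3 comparisons of days, with filled red circles for genes called by limma at an adjusted p under 0.05, open circles for those not called and grey diamonds for *Jun*, which was not tested. The dashed line is the median of all genes (−0.07, −0.20 and −0.31), and *Jun* and *Jund* are the genes farthest to the right from Day 1 to Day 3, at 2.26 and 0.98.

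Other genes of the pathway were followed by lists. Of 10 AP-1 dimer partners (Atf, Batf, Jdp2 and Maf genes), 8 were tested. By limma none of them was called in any of the 6 contrasts (0, and at most 2 in a contrast at an unadjusted p under 0.05). Of all genes, 7.56% were lower and 5.04% higher on Day 1 than on Day 0. On Day 3 these shares were 26.3% and 12%, again against Day 0. The median change of the partners from Day 0 to Day 1 was 0.08, against −0.07 for all genes. Of 16 other immediate early transcription factors, 11 were tested. From Day 0 to Day 1 none of these was called by limma (0, and 1 at an unadjusted p under 0.05, median −0.16), against 7.56% of all genes lower and 5.04% higher. None was called in the dip contrast either (0, and 3 at an unadjusted p under 0.05, median −0.07). In that contrast 3.52% of all genes were lower and 3.05% higher. From Day 0 to Day 3, 1 of the 11 was called lower and 1 higher by limma, against 26.3% and 12% of all genes. *Myc*, a driver of proliferation, was lower, from 59.8 and 84.6 FPKM to 15.7 and 8.28 (−2.54, SE 0.31, adjusted p = 0.000539). *Klf6*, a zinc finger factor, was higher, from 5.72 and 8.12 to 13.7 and 18.6 FPKM (1.12, adjusted p = 0.0499, called in 9 of 18 settings and lost without any 1 of the libraries of Day 0, Day 2 and Day 3, with an adjusted p of up to 0.227).

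Of 21 immediate early genes without a DNA-binding transcription factor as product, 19 were tested, and 3 were lower and 2 higher on Day 1 than on Day 0 (median −0.23), against 7.56% and 5.04% of all genes. By Day 3, 3 were lower and 3 higher than on Day 0 (median 0.02 against −0.31 for all genes), where 26.3% of all genes were lower and 12% higher. *Plk3*, a stress-activated kinase, had 3.03 and 3.10 FPKM (Day 0), 5.86 and 4.29 (Day 1), and 51.9 and 64.4 (Day 3), a change of 3.86 (adjusted p = 5.94e-05). *Arc*, known from neuronal activity, had at most 0.533 FPKM on Day 0 and Day 1 and 14.7 and 15.0 on Day 3. It entered the test through the later days on which it was high, so its call carries no weight of its own. In the dip contrast 2 of the 19 were lower, *Plk3* and *Arc*, and 1 was higher, against 3.52% and 3.05% of all genes. At an unadjusted p under 0.05 by limma these counts were 8 and 2, with a median of −0.705 against 0.05 for all genes. The shares of all genes just given are at an adjusted p, so they are no background for these unadjusted counts. The mean of neither *Plk3* nor *Arc* was lower on Day 1 than on Day 0, unlike that of *Jun*. *Zfp36l1*, which promotes mRNA decay, fell from 57.5 and 53.0 FPKM to 20.8 and 5.50 (Day 1) and had 11.1 and 8.74 (Day 3), a change of −2.37 from Day 0 (adjusted p = 0.00568). *Sgk1*, a kinase, had the opposite course to *Jun*, with 37.6 and 39.6 FPKM (Day 0), 123 and 157 (Day 1) and 50 and 25.5 (Day 3), a change of 1.82 at Day 1 (adjusted p = 0.00387).

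All 17 regulators on the list were tested, and 1 was lower and 1 higher on Day 1 than on Day 0 (median −0.02), a share near that of all genes (7.56% and 5.04%). *Nab2*, a co-repressor that binds Egr proteins and is itself induced by them, had 20.8 and 39.1 FPKM (Day 0), 1.37 and 0.656 (Day 1), 3.10 and 2.04 (Day 2), and 3.08 and 1.22 (Day 3). All 6 later libraries were below both Day 0 libraries, and the change on Day 1 was −3.90 (SE 0.43, adjusted p = 0.00129). Of the kinases that signal to these genes, *Mapk3* (ERK1) rose from 31.3 and 18.4 to 163 and 188 FPKM on Day 3 (2.81, adjusted p = 0.000151). *Srf*, the factor that binds CArG boxes, fell from 10.8 and 11.3 to 5.60 and 4.08 FPKM (−1.06, adjusted p = 0.00828). Without Day 0 replicate 2 the adjusted p of *Srf* was 0.0581. From Day 0 to Day 3 the median change of the list was −0.29, against −0.31 for all genes. In the dip contrast *Nab2* was the 1 regulator called lower and none (0) was higher, against 3.52% and 3.05% of all genes.

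Of 12 textbook targets of AP-1 or Egr proteins, 8 were tested, and 4 were lower and 1 higher on Day 1 than on Day 0 (median −0.98 against −0.07 for all genes), where 7.56% of all genes were lower and 5.04% higher. *Ccnd1*, the G1 cyclin, had 124 and 158 FPKM (Day 0) and 9.24 and 3.3 (Day 1), a change of −4.41 (SE 0.38, adjusted p = 0.000761). *Vim* fell by 2.02 (adjusted p = 0.00154) on the log2 scale. *Timp1* fell by 1.89 (adjusted p = 0.0208) and was called in 14 of 18 settings, not without any 1 of the Day 0 and Day 1 libraries (0.0704 to 0.138). *Ccnd1* did not come back with *Jun*, with 11.4 and 9.62 FPKM on Day 3. In the dip contrast 3 of the 8 targets were lower and 1 was higher, against 3.52% and 3.05% of all genes. The median there was −0.84, against 0.05 for all genes. From Day 1 to Day 3, 1 target was higher and 1 lower by limma, against 7.04% and 12.2% of all genes. The 1 that was higher is among the 3 lower in the dip contrast. *Pdgfa*, which encodes the A chain of PDGF, rose from 10.2 and 7.20 to 36.0 and 36.9 FPKM (Day 1), a change of 1.96 (adjusted p = 0.00295) and had 17.1 and 11.3 (Day 3). By Day 3, 3 of the 8 targets were lower than on Day 0, against 26.3% of all genes, and none was higher by limma (0, also at an unadjusted p under 0.05, with a median of −0.19).

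**Figure D4:**
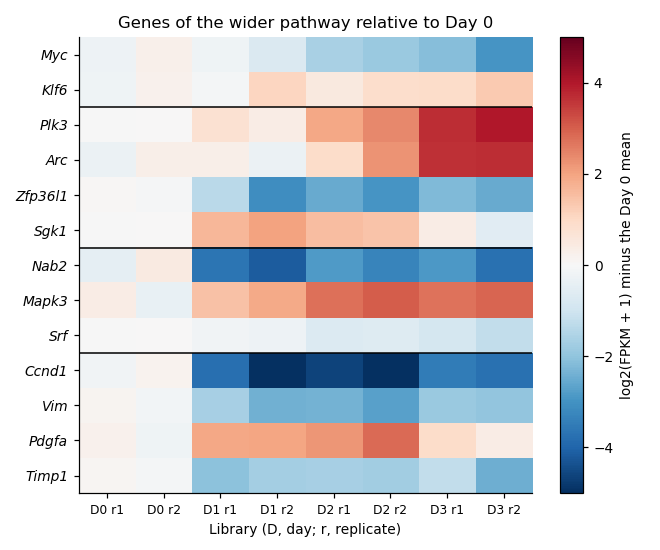
Heat map of log2(FPKM + 1) minus its Day 0 mean (color scale, blue lower and red higher) for genes named from each list, in the 8 libraries (columns, by day and replicate). From the top, the blocks are other transcription factors, other immediate early genes, regulators and targets, and *Nab2* and *Ccnd1* are dark blue from Day 1 on while *Plk3* and *Arc* turn red on Day 3.

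The genes most like *Jun* were sought among the 4966 other genes tested whose day means spanned at least 1 on the log2(FPKM + 1) scale, by Pearson's r over the 8 libraries. Of the first 5, 4 are given here, namely *Aplp2* (r = 0.99), *Phlda1* (r = 0.984), *Trim59* (r = 0.968) and *Prr5l* (r = 0.967). *Aplp2* encodes a relative of the amyloid precursor protein and had 145 and 150 FPKM (Day 0), 97.1 and 80.1 (Day 1), and 174 and 187 (Day 3). *Phlda1* had 46.7 and 43.0 FPKM (Day 0), 6.26 and 4.40 (Day 1), 13.5 and 27.7 (Day 2), and 66.2 and 110 (Day 3), a deeper fall than that of *Jun*. *Trim59* had 34.2 and 23.2 FPKM (Day 0), 8.66 and 3.75 (Day 1), and 54.3 and 77.9 (Day 3). Among the genes described here r with *Jun* was 0.899 for *Jund*, 0.409 for *Egr2*, 0.265 for *Egr1*, 0.198 for *Fosl2*, 0.146 for *Fos*, −0.0429 for *Ier2* and −0.747 for *Junb*. The 8 points are 4 days with 2 libraries each, the genes share these libraries and their depth, and these genes were picked as the highest of 4966, so r is given as a description.

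**Figure D5:**
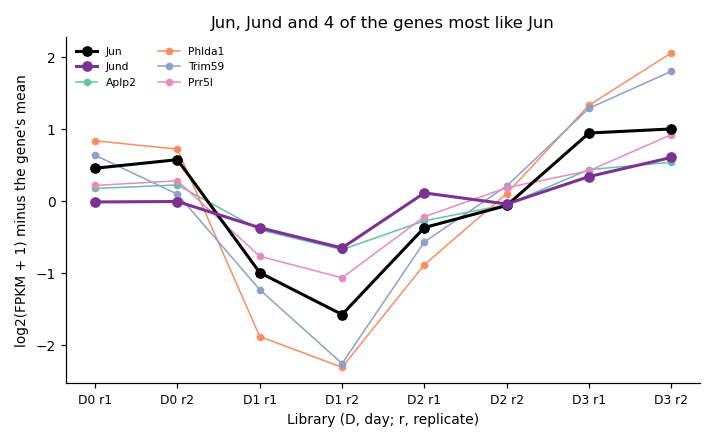
log2(FPKM + 1) minus the mean of the gene (vertical axis) in the 8 libraries, by day and replicate (horizontal axis), for *Jun* (black), *Jund* (purple) and 4 of the 5 genes most like *Jun* (thin colored lines, which only join the points of a gene). All have their 2 lowest points in the Day 1 libraries and their highest point on Day 3.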

How the data were processed

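Stranded, paired-end mRNA libraries (75 nt) of 8 samples were processed by the authors with OmicSoft ArrayStudio and deposited as a table of FPKM per gene and library (build mm10 per the labels). The gene model, the counting by strand and any further normalization were not given in the sources used here. Days and replicate numbers were taken from the sample labels. The study names a test for read counts, which FPKM does not allow, so the values were tested here as log2(FPKM + 1), with a pseudocount of 1, in R 4.3.3 with limma 3.58.1 (eBayes with a trend), with day as a factor over all 8 libraries, for genes that reached 1 FPKM in 2 or more libraries. P-values were adjusted by Benjamini-Hochberg over all 12208 genes and called under 0.05. The shares of all genes called refer to this threshold and not to an unadjusted p. A fold change on this scale understates the change of low genes, and with 2 libraries a day, p-values measure the spread between these libraries. The model was tested on simulated data. Other steps used Python 3.11.15, numpy 2.4.6, pandas 2.3.3 and matplotlib 3.10.9.

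Depth was estimated from whole steps between low FPKM values. The number of fragments of a gene was derived from it and from transcript lengths of GENCODE M21 (GRCm38), and came out whole within 0.15 for *Fosb*, *Junb*, *Egr1*, *Egr2* and *Ier2* after fitting length and scale, while for the others it is approximate. Libraries with the same number deviated together (r of the replicate differences 0.164 to 0.285 over 12208 genes, for all 6 pairs of days), so the replicate number was also fitted as a block. The numbers come from the labels, which do not state what they share. The genes described, the lists and the contrasts were chosen with earlier results of these data known. The text names all 10 genes, up to 4 genes of each list with the largest called change from Day 0 to Day 1 or Day 3, and the 5 genes most like *Jun*, less those that are withheld and so not reported. The alternatives were a pseudocount of 0.1, no filter, genes that reached 10 FPKM in a library, the same FPKM sum, median ratio scaling, quantile normalization, the block, eBayes with no trend, a fit restricted to the days in question, and leaving out each library.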

Additional observations from a re-analysis of the deposited data

How the results depend on the processing

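At 950000 to 1520000 fragments per library, genes under 10 FPKM rest on few fragments, and a call with 2 libraries a day often depends on 1 of them. Among the 7 genes tested besides *Jun*, the number lower on Day 1 than on Day 0 (1) was 0 with a filter of FPKM of at least 10, 0 with quantile normalization, 2 without a trend and 0 to 1 with a library left out. The number higher on Day 3 than on Day 1 (1) was 0 in a fit of only these days and 0 to 1 with a library left out. The number lower on Day 3 than on Day 0 (3) was 0 with the filter, 0 with quantile normalization and 1 to 3 with a library left out, and the number higher (0) was 1 with the filter, the same FPKM sum, median ratio scaling or quantile normalization. The dip (1) was 0 without a trend and 0 to 1 with a library left out. The replicate block changed no call among these genes (adjusted p = 0.00674 for the return of *Jund*). The filter of FPKM of at least 10 left *Egr1*, *Egr2*, *Ier2* and *Fosl2* untested. In the main fit, the genes counted as lower on Day 1 or Day 3 than on Day 0 include *Egr2*, which entered through Day 0.

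In the comparisons of Day 1 or Day 3 with Day 0, of Day 3 with Day 1 and in the dip contrast, directions turned only in changes that were not called. With a library left out, the log2 change of *Fos* was −0.21 (without Day 1 replicate 1) to 0.57 from Day 0 to Day 1, −0.27 (without Day 1 replicate 2) to 0.51 from Day 1 to Day 3, and −0.36 (without Day 1 replicate 1) to 0.42 in the dip contrast. From Day 1 to Day 3 the range was −0.20 (without Day 1 replicate 1) to 0.43 for *Fosl2*, −0.49 to 0.04 (without Day 1 replicate 1) for *Egr1*, and 0.00 (without Day 3 replicate 1) to 0.39 for *Egr2*. It was −0.57 to 0.13 (without Day 0 replicate 1) for *Junb* from Day 0 to Day 3. For *Ier2* in the dip contrast it was −0.28 to 0.25 (without Day 3 replicate 1), with 0.07 without Day 1 replicate 2. Other turns in these comparisons were 0.04 and 0.27 for *Junb* from Day 0 to Day 3 with median ratio scaling and quantile normalization, −0.04 for *Fos* in the dip contrast with median ratio scaling, and 0.02 for *Ier2* with the pseudocount of 0.1. The cause was not tested.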

Other observations

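Heat shock genes, which like immediate early genes respond to handling and stress, were followed beside the genes above. Of 8 on the list 6 were tested, and 1 was lower and 2 were higher on Day 1 than on Day 0 (median 0.11 against −0.07 for all genes), where 7.56% of all genes were lower and 5.04% higher. *Hspa5*, the chaperone of the endoplasmic reticulum, had 145 and 143 FPKM (Day 0), 215 and 229 (Day 1), 109 and 99.3 (Day 2), and 108 and 97.2 (Day 3), a change of 0.62 at Day 1 (SE 0.12, adjusted p = 0.0143 by limma, called in 14 of 18 settings). *Hsph1* had 41.6 and 36.3 FPKM (Day 0), 59.8 and 65.2 (Day 1), and 33.5 and 28.8 (Day 3), a change of 0.67 at Day 1 (adjusted p = 0.04, called in 12 of 18 settings). *Hspa5* was not called without either Day 0 library or Day 1 replicate 2 (adjusted p of up to 0.102), and *Hsph1* not without any 1 of the 4 libraries of these days (up to 0.226). Both were thus highest on the day on which *Jun* was lowest, while *Hsp90aa1* fell from 301 and 312 to 204 and 183 FPKM (−0.66, adjusted p = 0.0176, called in 13 of 18 settings and not without either Day 0 library or Day 1 replicate 2, up to 0.125). Whether these changes are linked to those of *Jun* was not tested.

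Neuron markers (4) summed to 31.0 to 232 FPKM, most of it *Tubb3*, which rose from 60.2 and 20.8 FPKM (Day 0) to 231 and 113 (Day 3), a change of 2.15 (adjusted p = 0.0206, called in 16 of 18 settings, with 0.146 without Day 0 replicate 2 and 0.114 without Day 3 replicate 1). *Snap25* went from 2.15 and 8.46 FPKM (Day 0) to 0 and 1.48 (Day 3), and *Syt1* from 2.05 and 1.72 to 0.969 and 1.1. *Rbfox3* had at most 0.305 FPKM. The median change of the 3 neuron markers tested was −0.50 between these days, against −0.31 for all genes, so *Tubb3* does not stand for the list. None of the 7 astrocyte markers was called between days by limma (0, and at most 1 in a contrast at an unadjusted p under 0.05). From Day 0 to Day 3, 26.3% of all genes were lower and 12% higher. Between these days the sum of the markers went from 304 to 900 FPKM in replicate 2 and from 88.7 to 133 in replicate 1. The main fit has no block, so this difference enters the spread, and the lack of calls does not show a steady level. The sum of these markers differed between the replicate numbers on each day.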
